A study of Mus musculus with 4 samples.

Results

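Interleukins and their receptors were examined in newborn lung by collecting the protein-coding genes whose symbol is Il followed by a number, with a mean of at least 10 normalized counts over the 4 libraries. Of 82 protein-coding genes with such a symbol, 44 met the mean and 38 did not, among 48709 genes in the table and 18436 that reached the same mean. The 44 genes comprised 14 ligands, 29 receptor chains or soluble receptors, and the IL-18 binding protein gene Il18bp. The RNA came from the left lung lobe of C57BL/6 mice on postnatal day 1. Of these mice, 2 were RykSL/SL, homozygous for an allele named SL of Ryk, which encodes a receptor for WNT ligands, and 2 were wild-type. The mice received no treatment, each library is 1 mouse, and the whole lobe was used, so every value is a mixture of epithelium, endothelium, mesenchyme and blood cells. In such tissue, fewer cells of a type and less RNA per cell cannot be told apart. How SL alters Ryk was not given in the labels.

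Interleukins are secreted proteins by which leukocytes, epithelium and stroma signal to one another. Ligands of the IL-1 family act through receptor pairs with an intracellular TIR domain and the adaptor MyD88, whereas most other interleukins bind receptor chains without enzyme activity that recruit JAK kinases and STAT factors. Several members hold ligands back instead of passing on the signal, among them the decoy receptor Il1r2, the receptor antagonist Il1rn, the soluble IL-22 binding protein Il22ra2 and Il18bp. In lung, IL-33 from the stroma and epithelium acts on innate lymphoid cells and mast cells, and the IL-4 receptor chain pairs with Il13ra1 in airway epithelium.

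The values are the authors' normalized counts, which summed to 19516482 and 19987634 in the RykSL/SL libraries and to 18743098 and 18658239 in the wild-type libraries. Lung markers were high in all 4 libraries, with 135559 to 220945 normalized counts of the surfactant gene Sftpc. Ryk itself had 2757 and 2203 in RykSL/SL lungs and 2528 and 2525 in wild-type lungs (log2 fold change -0.04, adjusted p = 0.926). RykSL/SL replicate 1 stood apart in sex-linked genes, with 24836 normalized counts of the X-inactivation RNA Xist, against 7 to 23 in the other libraries, and 56 of the Y-linked gene Ddx3y, against 2197 to 3769. The labels give no sex. In these genes the genotypes were thus unequal, and the part of sex in the differences below was not tested. Values without that lung are given where they change a call.

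Between the genotypes, 2 of the 44 genes passed the test, and both were receptors that rose in RykSL/SL lungs: Il6ra, which binds IL-6, and Il1r2, the IL-1 decoy. No ligand passed, and no member fell. The test was limma on log2(normalized count + 1) over all 18436 genes, with 2 mice per genotype and calls at a Benjamini-Hochberg adjusted p under 0.05. Over all genes tested, 2.39% were called, 1.47% higher and 0.917% lower, so 2 of 44 genes (4.55%) is a small count near that background. The median log2 fold change was 0.05 over the members and -0.02 over all genes tested. At an unadjusted p under 0.05 there were 9 members higher and 4 lower, and all 9 of the higher ones were receptors. These counts include Il22ra2, which reached the mean of 10 only through the RykSL/SL libraries, and Il1a, which reached it only through the wild-type libraries, so they support nothing about the members. In all genes tested, 20.1% were below that p, 10.4% higher and 9.64% lower. Both RykSL/SL lungs lay beyond both wild-type lungs in 25 of the 44 members (56.8%), 14 above and 11 below, against 52.6% of all genes tested, a share near the background. Ligands had a median log2 fold change of -0.12 and receptors of 0.07. With no mean-variance trend 1 member (Il6ra) was called, at a background of 0.391%, and with no filter on low values 0 of all genes were called, with 14 members at an unadjusted p under 0.05. Leaving out RykSL/SL replicate 1 gave 5 called members (Il6ra, Il11ra1, Il11ra2, Il6 and Il1rn) at a background of 12.9%. Il6 reached the mean of 10 only through RykSL/SL replicate 2, the 1 RykSL/SL lung in that fit, so its call was preset by the filter. Leaving out RykSL/SL replicate 2, wild-type replicate 1 or wild-type replicate 2 gave 0 calls among members and among all genes, with 18, 4 and 6 members at an unadjusted p under 0.05.

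**Figure D1:**
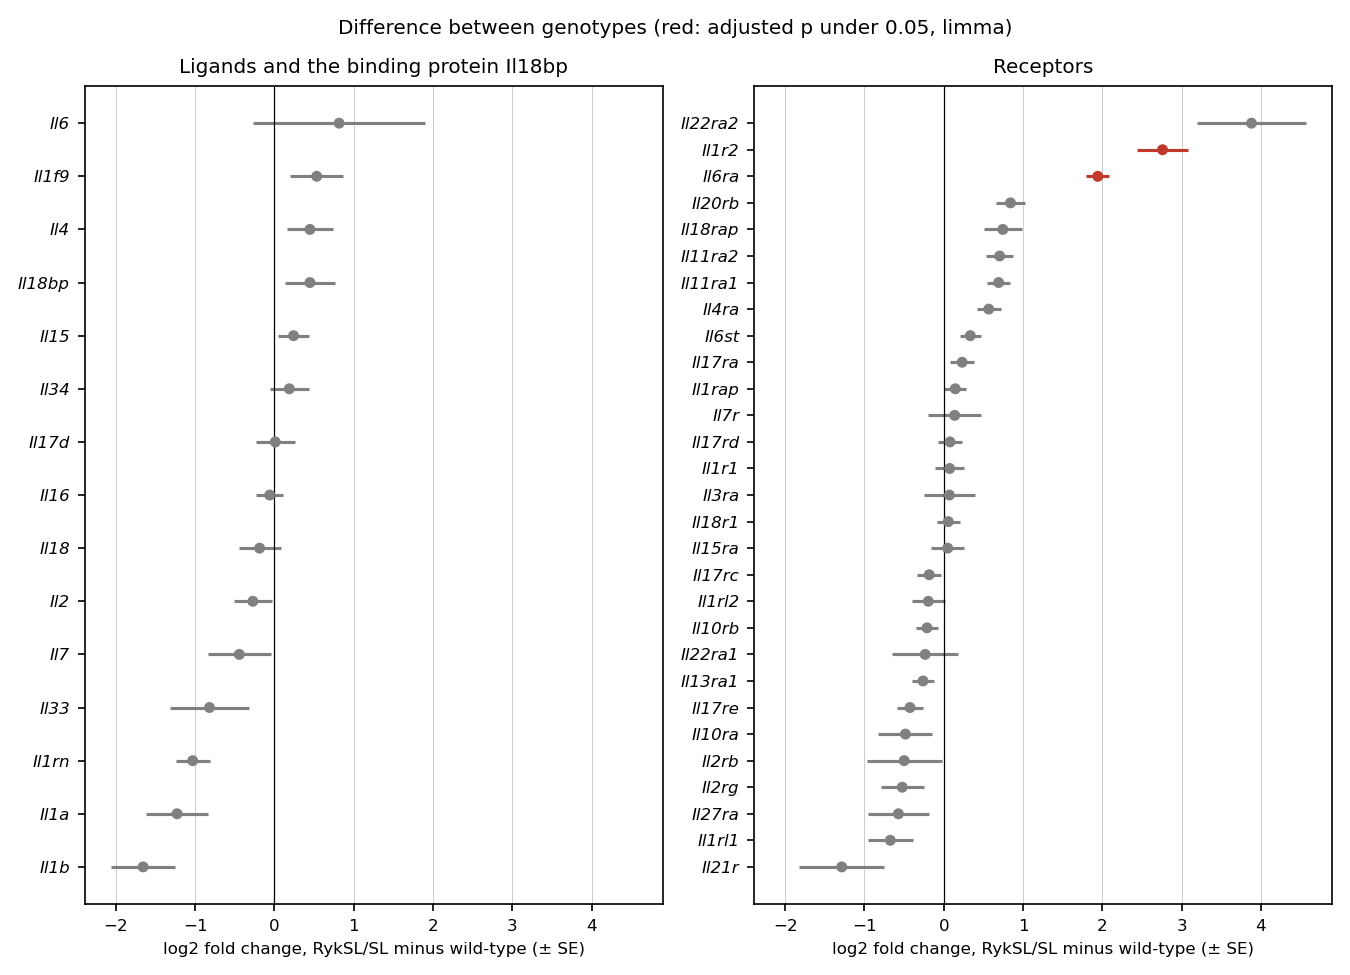
Log2 fold change, RykSL/SL minus wild-type, with its standard error, for the 14 ligands and Il18bp (left) and the 29 receptors (right); red marks an adjusted p under 0.05. Il6ra (1.94) and Il1r2 (2.76) are red, Il22ra2 lies furthest right at 3.88 with a wide error, and Il1b lies lowest at -1.66.

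Il6ra encodes the ligand-binding chain for IL-6, which signals only once it has joined the shared chain gp130 (Il6st). It had 2555 and 2817 normalized counts in RykSL/SL lungs, against 658 and 739 in wild-type lungs. Both RykSL/SL lungs thus stood far above both wild-type lungs, and the RykSL/SL mean was 3.85 times the wild-type mean. On the log2 scale it was higher by 1.94 (standard error 0.14, limma adjusted p = 0.00746). Leaving out single lungs kept the log2 fold change between 1.86 and 2.03, but the adjusted p was 0.0966 without RykSL/SL replicate 2, 0.785 without wild-type replicate 1 and 0.716 without wild-type replicate 2. It was also 0.222 when genes below the mean of 10 were kept in the fit. The gene lies on chromosome 3, and exons of a predicted gene on the opposite strand overlap it.

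Il1r2 encodes a receptor that binds IL-1 but has no TIR domain and so does not signal. Its normalized counts were 196 and 265 in RykSL/SL lungs and 25 and 43 in wild-type lungs. The groups were far apart, with a RykSL/SL mean 6.78 times the wild-type mean, and 1 wild-type lung was well above the other. On the log2 scale it was higher by 2.76 (standard error 0.33, limma adjusted p = 0.0197). It stayed between 2.38 and 3.14 when single lungs were left out, and the adjusted p then was 0.0503, 0.115, 0.785 and 0.716 without RykSL/SL replicates 1 and 2 and wild-type replicates 1 and 2. Without the mean-variance trend it was 0.0541, and with no filter on low values 0.24.

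The start-site regions of these genes are shown because both rose. RefSeq promoter sequences (GRCm38.p6, 250 bases before to 50 bases after a start site, 5′ to 3′ on the gene's strand) were found for 35 of the 44 members. Capitals mark the E-box CACGTG, a palindrome bound by bHLH factors, which was picked after the sequences had been read. The region of Il6ra is chr3:89913147-89913446 on the minus strand, and that of Il1r2 is chr1:40085843-40086142 on the plus strand, which lies inside the gene as the deposited table bounds it. Il20rb (chr9:100486424-100486723, minus strand), a receptor gene with higher values that did not pass, and Il1b (chr2:129371090-129371389, minus strand), with lower values that did not pass, are given for comparison.
Il6ra: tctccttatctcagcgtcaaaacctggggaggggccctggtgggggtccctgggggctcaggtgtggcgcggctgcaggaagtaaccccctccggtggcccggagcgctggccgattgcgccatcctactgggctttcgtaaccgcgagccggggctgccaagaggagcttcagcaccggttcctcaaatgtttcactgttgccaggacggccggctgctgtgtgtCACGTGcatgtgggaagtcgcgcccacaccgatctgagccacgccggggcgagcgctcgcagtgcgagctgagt
Il1r2: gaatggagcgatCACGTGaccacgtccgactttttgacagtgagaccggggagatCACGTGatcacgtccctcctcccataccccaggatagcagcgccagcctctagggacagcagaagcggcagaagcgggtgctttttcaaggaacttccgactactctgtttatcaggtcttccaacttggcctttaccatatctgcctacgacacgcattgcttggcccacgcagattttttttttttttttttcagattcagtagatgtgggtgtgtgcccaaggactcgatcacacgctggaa
Il20rb: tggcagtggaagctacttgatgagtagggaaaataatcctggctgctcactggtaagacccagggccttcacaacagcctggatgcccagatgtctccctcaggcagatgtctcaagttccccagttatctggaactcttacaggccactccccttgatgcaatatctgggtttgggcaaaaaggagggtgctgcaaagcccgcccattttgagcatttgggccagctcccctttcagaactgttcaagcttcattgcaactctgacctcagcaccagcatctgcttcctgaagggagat
Il1b: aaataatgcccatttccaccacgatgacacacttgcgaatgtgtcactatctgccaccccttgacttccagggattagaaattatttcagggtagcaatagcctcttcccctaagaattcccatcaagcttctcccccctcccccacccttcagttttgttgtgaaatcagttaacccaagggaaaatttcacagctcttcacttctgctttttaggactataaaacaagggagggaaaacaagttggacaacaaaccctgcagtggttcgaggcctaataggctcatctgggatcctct
The Il6ra region holds 1 CACGTG, whose first base is 24 bases before the start site, and the Il1r2 region holds 2, at 238 and 195 bases before it. No other member with a sequence has CACGTG in this window. The 35 members had 47 promoter sequences, as some had more than 1. CACGTG was thus present in 2 of the 47, and in 7.15% of all 32851 promoter sequences, so it was not frequent among members. Of the other motifs searched on both strands, TTCNNNGAA, the STAT site, was present in 6 of the 47. These came from 6 members including Il1r2, and 8.3% of all promoters had the motif. TATAAA was present in 8 of the 47, from 7 members, among them Il1a, Il1b, Il1rn and Il33, and in 13.6% of all promoters. The glucocorticoid response element (0.00913% of all promoters) and the NF-kB site (0.155%), each searched as 1 consensus, were in no member's window. In Il1r2 the TTCNNNGAA match did not overlap either CACGTG. These matches describe the letters in the windows only.

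Il6ra was accompanied by other receptor chains of the IL-6 family with higher values that did not pass. Il6st, the gp130 chain, had 4136 and 3960 normalized counts in RykSL/SL lungs against 3206 and 3212 in wild-type lungs (log2 fold change 0.33, standard error 0.13, adjusted p = 0.241). Il11ra1, which binds IL-11, had 1172 and 1332 against 783 and 763 (log2 fold change 0.69, standard error 0.14, adjusted p = 0.0731, and 0.0410 without RykSL/SL replicate 1). Il11ra2, a near-identical copy, had 451 and 547 against 317 and 292, with an adjusted p of 0.103 (0.0458 without RykSL/SL replicate 1). All 50-base sequences of Il11ra2 transcripts occur in other genes, and 46.3% of those of Il11ra1 do, so Il11ra2 reads cannot be told apart from those of its copies, and Il11ra1 reads only in part. In each of these genes both RykSL/SL lungs lay above both wild-type lungs, a pattern that 25.7% of all tested genes shared. Il27ra, a chain of the IL-27 receptor that also pairs with gp130, had 19 and 12 in RykSL/SL lungs against 24 and 22 in wild-type lungs.

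The ligands of these receptors were scarce. Il6 had 2 and 30 normalized counts in RykSL/SL lungs and 5 and 4 in wild-type lungs, so that 1 RykSL/SL lung was above and the other below the wild type. Its log2 fold change of 0.82 (standard error 1.08, adjusted p = 0.717) became -0.87 without RykSL/SL replicate 2 and 2.50 without RykSL/SL replicate 1, so its direction rests on 1 lung, the same lung through which the gene reached the mean of 10. Il11 lay below the filter, at 10 and 14 in RykSL/SL lungs and 2 and 4 in wild-type lungs.

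Other gp130 partners came from a list of signalling genes without Il names. Lifr, the receptor for leukaemia inhibitory factor, had 3255 and 2825 normalized counts in RykSL/SL lungs and 2018 and 2067 in wild-type lungs (log2 fold change 0.57, adjusted p = 0.112). Cntfr, which binds ciliary neurotrophic factor, had 111 and 217 against 30 and 47 (2.02, adjusted p = 0.0644). The groups did not overlap in either gene, but neither passed. Osmr, the oncostatin M receptor, had 652 and 1339 against 642 and 617, with most of its difference in 1 lung.

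**Figure D2:**
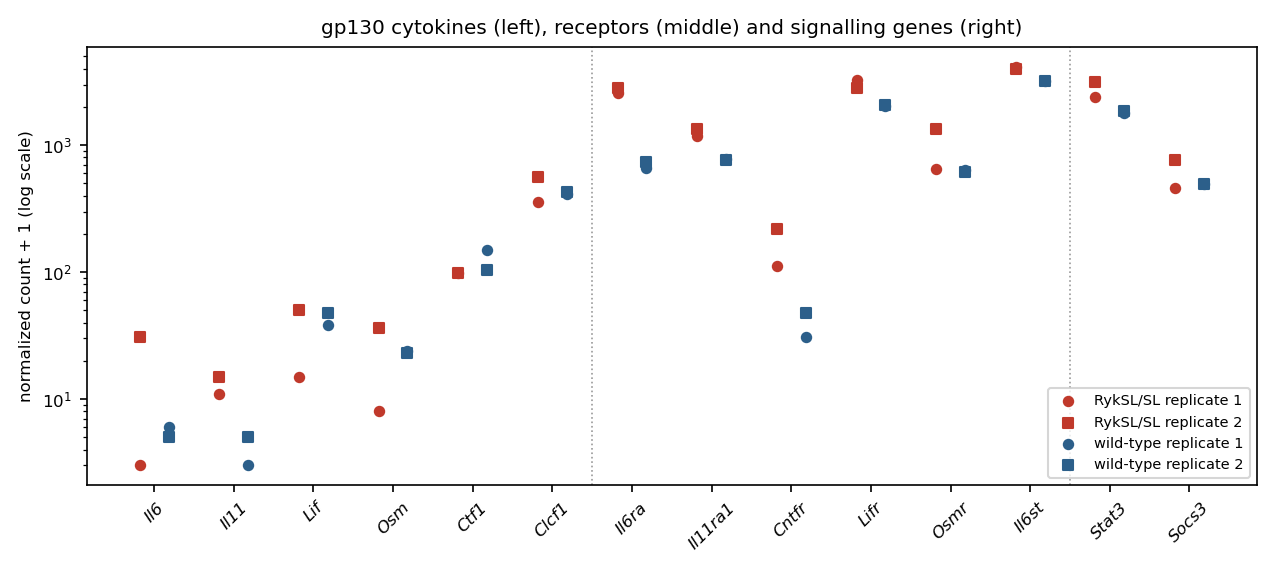
Normalized counts + 1 (log scale) in each lung for cytokines that use gp130 (left), receptors (middle) and the signalling genes Stat3 and Socs3 (right), with RykSL/SL in red left of wild-type in blue. Il6ra and Cntfr show the widest gaps between genotypes, while Il6, Lif and Osm have 1 RykSL/SL lung on either side of the wild-type lungs.

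In the IL-1 family, Il1a, Il1b and the receptor antagonist gene Il1rn had lower values in RykSL/SL lungs without passing. Il1b had 15 and 33 normalized counts in RykSL/SL lungs and 72 and 73 in wild-type lungs (log2 fold change -1.66, standard error 0.41, adjusted p = 0.107). Il1a, the other agonist, had 9 and 8 against 25 and 18 (-1.23, standard error 0.40, adjusted p = 0.173), and reached the mean of 10 only through the wild-type libraries. Il1rn, which occupies the IL-1 receptor without activating it, had 94 and 74 against 175 and 168 (-1.03, standard error 0.22, adjusted p = 0.0763, and 0.0418 without RykSL/SL replicate 1). Both RykSL/SL lungs were below both wild-type lungs in all 3 genes, and 26.9% of all tested genes had that pattern. Macrophage markers were lower in the same lungs: all 8 listed markers had negative log2 fold changes, 1 of them (Siglecf, which reached the mean of 10 only through the wild-type libraries) passed, and their summed level was 2293 to 2449 in RykSL/SL lungs and 3223 to 3679 in wild-type lungs, with no marker at 0. The part of macrophage content in the Il1a, Il1b and Il1rn values was not tested. Neutrophil markers, of which S100a8 and S100a9 are the most abundant, summed to 5150 and 8341 in RykSL/SL lungs against 5898 and 5776 in wild-type lungs, and none of the 4 that were tested passed.

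The most abundant ligand of the set was Il33, an alarmin stored in the nucleus and released from damaged stromal and epithelial cells. It had 362 and 1050 normalized counts in RykSL/SL lungs and 1389 and 853 in wild-type lungs. The groups overlapped and the spread within each genotype was wide (log2 fold change -0.82, standard error 0.50, adjusted p = 0.414). Its receptor Il1rl1, known as ST2, was far lower, at 24 and 26 against 42 and 39 (-0.67, adjusted p = 0.26). Mast cell markers, whose cells carry ST2, included Cpa3 at 109 and 87 in RykSL/SL lungs against 183 and 118 in wild-type lungs, Cma1 at 45 and 23 against 80 and 67, and Tpsb2 at 56 and 52 against 106 and 83. None of the 5 tested mast cell and basophil markers passed, and the part of mast cells in the Il1rl1 values was not tested. The summed level of the 7 listed markers was 2796 and 1470 in RykSL/SL lungs and 1412 and 1298 in wild-type lungs. Most of it came from Gata2, which endothelium also expresses. Gata2 was higher, at 2571 and 1293 against 1000 and 1005, while the other 4 tested markers were lower.

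Il18, matured by inflammasome caspases, had 121 and 192 normalized counts in RykSL/SL lungs and 163 and 185 in wild-type lungs, with overlapping groups (-0.19, adjusted p = 0.737). Its neutralizing protein Il18bp had 77 and 132 against 67 and 81 (0.45, adjusted p = 0.474), and its receptor chain Il18r1 had 2168 and 2571 against 2295 and 2244 (0.06, adjusted p = 0.865). The signalling partner Il18rap, with 112 and 101 against 71 and 56, was higher in both RykSL/SL lungs but did not pass (0.74, standard error 0.24, adjusted p = 0.17). Il1f9, which encodes IL-36 gamma, had 27 and 27 in RykSL/SL lungs and 21 and 16 in wild-type lungs, and Il1rl2, its receptor, had 428 and 299 against 425 and 395. The shared accessory chain Il1rap stood at 622 and 593 against 552 and 546 (0.15, adjusted p = 0.605).

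Il1r2 opens a run of 6 receptor genes on chromosome 1 that spans 478 kb, with no other protein-coding gene of the table lying wholly inside it. The neighbour Il1r1, which encodes the signalling IL-1 receptor, had 1156 and 853 normalized counts in RykSL/SL lungs and 958 and 928 in wild-type lungs. Its groups overlapped and its log2 fold change was 0.07 (standard error 0.18, adjusted p = 0.855), beside 2.76 for Il1r2. The other members of the run, Il1rl2, Il1rl1, Il18r1 and Il18rap, had log2 fold changes of -0.20, -0.67, 0.06 and 0.74, none of which passed. Whether Il1r2 differed from its neighbours was not tested.

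**Figure D3:**
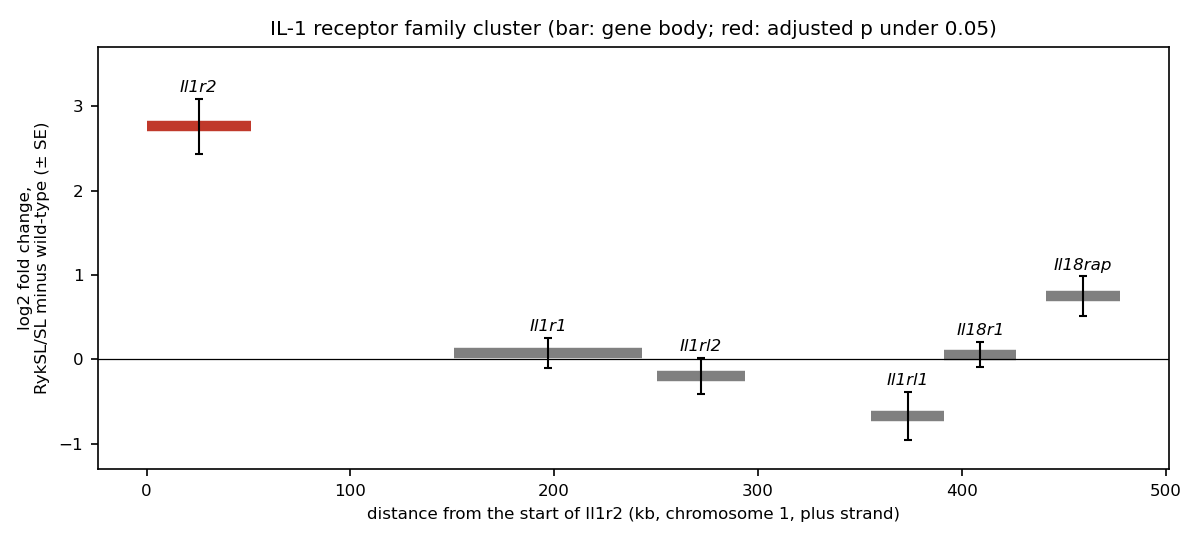
Log2 fold change, RykSL/SL minus wild-type, of the 6 IL-1 receptor family genes against their distance from the start of Il1r2 in kb; horizontal bars are gene bodies and vertical lines are standard errors. Il1r2 stands at 2.76, and the other genes lie between -0.67 and 0.74.

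Il22ra2 encodes a soluble receptor that captures IL-22. It had 30 and 13 normalized counts in RykSL/SL lungs and 0 and 1 in wild-type lungs, so it was next to absent from the wild-type libraries and met the mean of 10 only through the RykSL/SL libraries. For such a gene the genotypes had to differ, and no ratio is given. Its log2 fold change of 3.88 (standard error 0.68, adjusted p = 0.0513) depends on the pseudocount and is given as a description only. Il22 was listed at 0 in all 4 libraries. Il22ra1, the signalling receptor of epithelium, had 9 and 12 against 11 and 14.

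The remaining receptors of the IL-10 family went either way. Il20rb, a chain shared by the receptors of IL-19, IL-20 and IL-24, had 206 and 211 normalized counts in RykSL/SL lungs against 112 and 120 in wild-type lungs. The lungs of each genotype were close together and the groups apart, yet the gene did not pass (0.84, standard error 0.18, adjusted p = 0.0802). The ligands Il20 and Il24 were listed at 0 in every library, and Il19 at 0 in all but RykSL/SL replicate 2, where it was at 1. Il10rb, a widely shared chain, had 733 and 751 against 915 and 807 (-0.21, adjusted p = 0.457), and 13.9% of its 50-base sequences also occur in other genes. Il10ra, which leukocytes carry, had 66 and 130 against 132 and 128 (-0.48, adjusted p = 0.475), and only RykSL/SL replicate 1 was low.

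Of receptors for IL-4, IL-13 and the cytokines that use the common gamma chain, none passed. Il4ra, the ligand-binding chain for IL-4 and part of the IL-13 receptor, had 1706 and 1445 normalized counts in RykSL/SL lungs and 1011 and 1110 in wild-type lungs (0.57, standard error 0.15, adjusted p = 0.126). Il13ra1, its partner, had 1179 and 1189 against 1490 and 1353 (-0.26, adjusted p = 0.34). The paired chains thus lay on opposite sides of the wild type, each without passing. Il13 was at 0 in 3 libraries and 1 in wild-type replicate 1, and Il4, the type 2 cytokine, had 36 and 33 against 25 and 25 (0.45, adjusted p = 0.439).

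Il2rg, the common gamma chain, had 214 and 129 normalized counts in RykSL/SL lungs and 257 and 223 in wild-type lungs (-0.52, adjusted p = 0.345), and 27.5% of its 50-base sequences also occur in a predicted gene. Il21r, the IL-21 receptor of lymphocytes, had 20 and 8 against 44 and 24 (-1.29, standard error 0.54, adjusted p = 0.254). Il2rb had 11 and 6 against 11 and 13, Il7r 21 and 22 against 21 and 18, and Il15ra 93 and 91 against 84 and 94. Il21r and Il2rg are carried by lymphocytes, and both had their lowest value in RykSL/SL replicate 2. The 5 listed B-cell markers were all lower in RykSL/SL lungs, 1 of them (Ms4a1) passed, and they summed to 223 and 164 in RykSL/SL lungs against 516 and 497 in wild-type lungs. T-cell markers were low, with Cd3e at 3 and 0 against 0 and 2, Cd3d at 7 and 5 against 17 and 9, and Cd2 at 9 and 7 against 23 and 18. Of the 9 listed T, NK and innate lymphoid markers, 4 were tested and none passed. The 9 summed to 1152 and 2091 against 848 and 840, mostly from Rora, which other cells express. Rora was higher, at 1083 and 2054 against 729 and 754, while the other 3 tested markers were lower. The part of lymphocyte content in the Il21r and Il2rg values was not tested.

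No ligand of the gamma chain receptors passed. Il15, made by stroma and myeloid cells, had 139 and 169 normalized counts in RykSL/SL lungs and 132 and 127 in wild-type lungs (0.24, adjusted p = 0.546). Il7, a stromal survival factor for lymphocytes, had 24 and 39 against 55 and 32. Il2, a T-cell product, had 83 and 97 against 124 and 95 in the same libraries whose T-cell markers were low, and 12.6% of its 50-base sequences also occur in transcripts of Ntan1 (-0.27, adjusted p = 0.568).

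The IL-17 receptors varied little. Il17ra, the chain common to this family, had 435 and 471 normalized counts in RykSL/SL lungs and 375 and 396 in wild-type lungs (0.23, adjusted p = 0.437). Il17rc, its partner for IL-17A and IL-17F, had 298 and 322 against 351 and 353, and Il17rd, which also restrains FGF signalling, had 723 and 632 against 598 and 685. Il17re, the receptor for IL-17C in epithelium, had 203 and 188 against 253 and 273, lower in both RykSL/SL lungs without passing (-0.43, standard error 0.17, adjusted p = 0.237). Their ligands Il17a, Il17b, Il17c, Il17f and Il25 were at 0 to 6 in every library, and Il17d alone met the mean, with 103 and 77 against 93 and 84 (0.01, adjusted p = 0.985).

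Of the last 3 genes, Il34, a ligand of the macrophage receptor encoded by Csf1r, had 252 and 171 normalized counts in RykSL/SL lungs and 165 and 201 in wild-type lungs (0.19, adjusted p = 0.714). Il16, a chemoattractant that binds CD4, had 234 and 246 against 235 and 266 (-0.06, adjusted p = 0.879), and 15.5% of its 50-base sequences also occur in genes that overlap it on the opposite strand. Il3ra, the IL-3 receptor chain, had 254 and 141 against 156 and 208 (0.07, adjusted p = 0.926), with the widest gap within a genotype between the RykSL/SL lungs.

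Levels between genes were compared per kilobase of exon, in the order of the mean over both genotypes. Among receptors, Il18r1 stood first, at 492 normalized counts per kilobase in RykSL/SL lungs and 471 in wild-type lungs. Il13ra1 came next, at 319 and 383, and then Il6st, at 365 and 289, and Il11ra2, at 384 and 234. The Il11ra2 level cannot be assigned to that gene, since its 50-base sequences all occur in other genes. In RykSL/SL lungs alone Il11ra2 and Il6st stood above Il13ra1. Il6ra had 311 per kilobase in RykSL/SL lungs and 80.8 in wild-type lungs, so it was near the level of its partner Il6st in RykSL/SL lungs and well under it in wild-type lungs. For the IL-1 receptors, Il1r2 had 121 per kilobase in RykSL/SL lungs against 17.8 in wild-type lungs, and Il1r1 158 against 148. Among ligands, Il33 (245 in RykSL/SL lungs, 388 in wild-type lungs) and Il18 (152 and 169) led, followed by Il34, Il2 and Il17d. By the mean over both genotypes, the lowest were Il6 among ligands (6.59 and 1.85) and Il2rb among receptors (1.98 and 2.80).

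**Figure D4:**
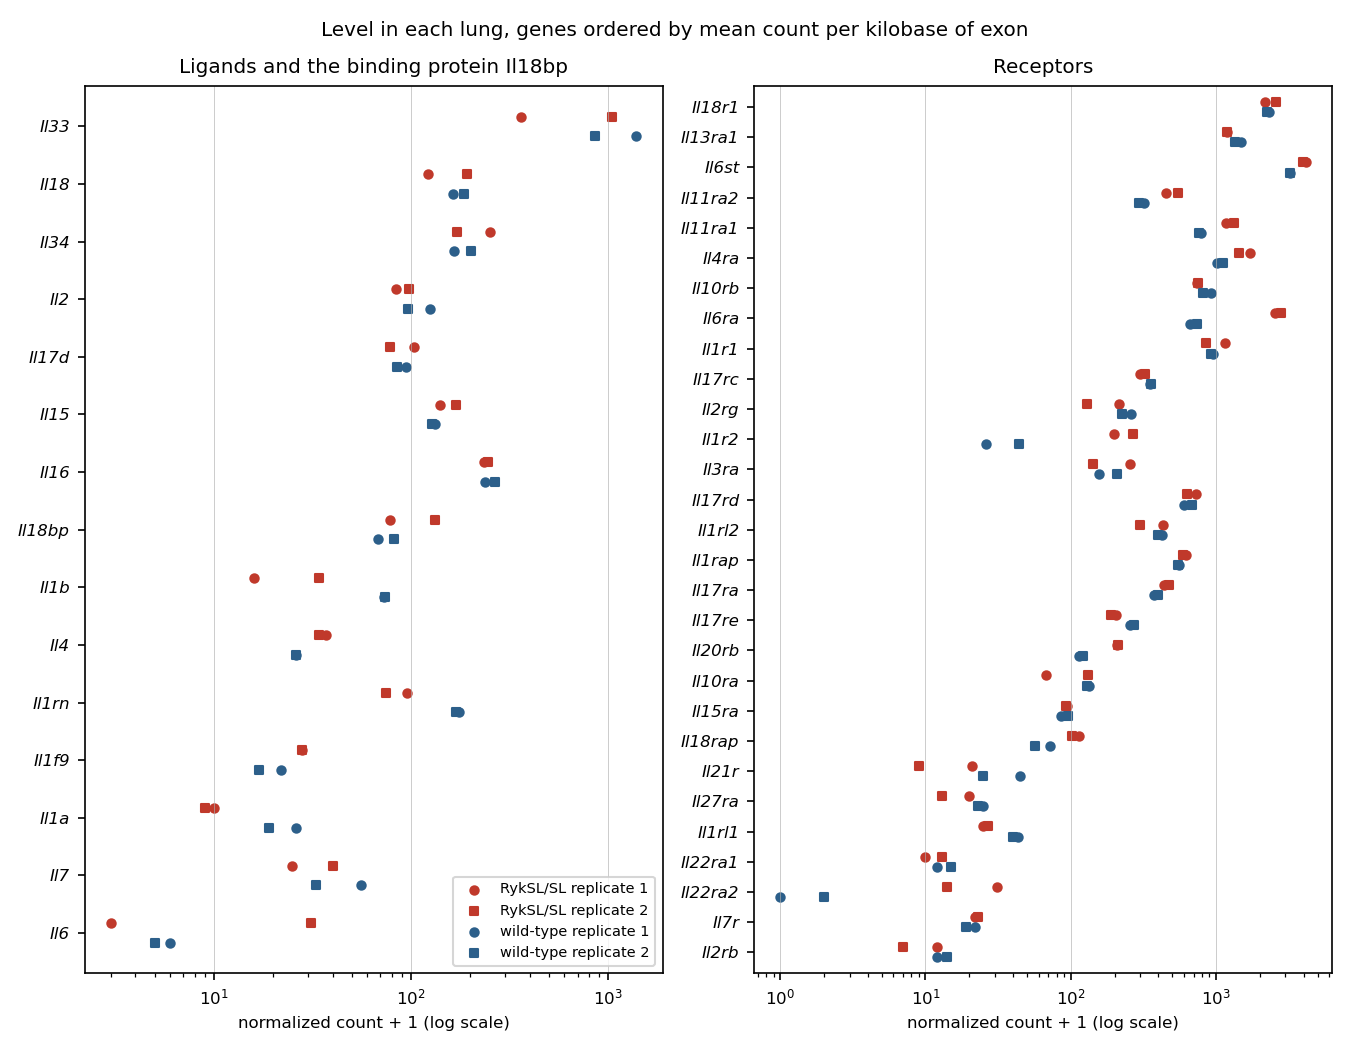
Normalized counts + 1 (log scale) of each gene in the RykSL/SL lungs (red, above) and wild-type lungs (blue, below), for 14 ligands and Il18bp (left) and 29 receptors (right), ordered by mean count per kilobase of exon. Il6ra, Il1r2 and Il22ra2 show red points clear of blue ones, and Il1b and Il1rn the reverse. The red and blue points of Il33 alternate, and the blue points of Il6 lie between its red ones.

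The 38 genes below the mean were 25 ligands, 12 receptors and the enzyme gene Il4i1. Of these, 8 were listed at 0 in all libraries: Il3, Il9, Il17a, Il20, Il22, Il24, Il1f6 and Il1f10. Il10, Il5, Il12b, Il21, Il23a, Il27, Il31, Il1f5 and Il1f8 had at most 6 normalized counts in any library, and Il12a at most 9. The receptors were Il12rb1, Il12rb2, Il13ra2, Il17rb, Il1rapl1, Il1rapl2, Il20ra, Il23r, Il2ra, Il31ra, Il5ra and Il9r, none with more than 13. Values this low rest on few reads and no comparison was made. Just under the mean of 10 stood Il17rb (8), Il11 (7.5) and Il12a (6.25), and just over it Il2rb (10.25), Il6 (10.25) and Il22ra2 (11).

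Of 66 listed genes of these pathways without Il names, namely cytokines, receptors and signalling genes, 64 were tested, of which 1 rose and 1 fell, at a background of 1.47% and 0.917%. Nfkbia, the inhibitor of NF-kB that the pathway itself induces, rose, with 3065 and 2859 normalized counts in RykSL/SL lungs against 1089 and 1099 in wild-type lungs (1.44, standard error 0.13, adjusted p = 0.0109). Csf1, the growth factor of macrophages that shares its receptor with IL-34, fell, with 242 and 258 against 532 and 460 (-0.98, standard error 0.16, adjusted p = 0.0440). Neither passed with no filter on low values, where 0 of all genes were called, or without the trend, at a background of 0.391%. Without RykSL/SL replicate 1, the lung that stood apart in sex-linked genes, the Nfkbia call held and the Csf1 call did not. Neither call held in the fits that left out another lung, and each such fit has 1 lung of a genotype. Csf1r, the receptor of both ligands, had 740 and 634 against 1074 and 915 (-0.53, adjusted p = 0.157).

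No JAK kinase gene passed: Jak1, Jak2, Jak3 and Tyk2 had log2 fold changes between -0.07 and 0.12, and their groups overlapped. Of 7 STAT genes, Stat3, the main factor downstream of gp130, had 2409 and 3153 normalized counts in RykSL/SL lungs and 1799 and 1848 in wild-type lungs (0.60, adjusted p = 0.144). Both RykSL/SL lungs lay above both wild-type lungs, but the gene did not pass. Stat4 had 13 and 13 against 5 and 9, and Stat2 609 and 606 against 652 and 664. Among 8 SOCS feedback inhibitors, Socs3, induced by gp130 signalling, had 461 and 762 against 493 and 497 (0.26, adjusted p = 0.607), Socs2 had 4574 and 7349 against 3307 and 3435 (0.78, adjusted p = 0.159), and Socs1 had 15 and 43 against 67 and 60 (-1.28, adjusted p = 0.23). Socs7 (0.48, adjusted p = 0.185) and Cish (0.59, adjusted p = 0.239) were also higher without passing. None of the 12 adaptor and kinase genes of the IL-1 and IL-17 receptors passed, with log2 fold changes from -0.32 (Irak2) to 0.28 (Traf6), with Tab1 (-0.30) and Irak4 (0.23) between them, and Myd88 had 540 and 505 against 536 and 521. Besides Nfkbia, Ikbkb (0.50, adjusted p = 0.173), Nfkbib (0.51, adjusted p = 0.226), Chuk (0.35, adjusted p = 0.273) and Nfkb2 (0.48, adjusted p = 0.293) were the NF-kB genes with the smallest p.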

How the data were processed

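RNA from 3 micrograms of total RNA per mouse was made into stranded mRNA libraries, per the labels' protocols. The values are normalized counts that the authors deposited as whole numbers and are treated here as a score, with the scaling method not given in the sources used here. Per the submitters' processing notes, FastQC, STAR 2.4.0a, featureCounts 1.5.1 of Subread and DESeq2 1.14.1 were used, with mm10 and GRCm38. The strand setting used and the treatment of multiply aligned reads were details not given in the sources used here. No count model was run on scaled values.

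Differences were tested with limma 3.58.1 (R 4.3.3) on log2(value + 1) with a mean-variance trend, two-sided, for 18436 genes whose mean reached 10, with Benjamini-Hochberg adjustment over all of them. Fold changes are RykSL/SL minus wild-type on that scale, and for low genes they understate the change. Replicates are separate mice. The labels do not pair them. The members, lists, tests and the 13 alternatives were chosen with earlier results of these data known. With 2 mice per genotype, p-values rest on the spread within each genotype and on that of other genes with similar values. The mean-variance trend draws each gene's spread towards theirs, with 4.07 prior degrees of freedom.

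Values for every member are given, with test results by a rule: called members, those with an absolute log2 fold change of at least 1, the 5 ligands and 8 receptors of highest level and 3 more beyond the wild type. Of each pathway list, called genes and up to 4 others of smallest p are named, except for results that are not reported here. Test results of other members, and Socs3, Myd88 and Osmr, were added after their values were seen. Exon lengths, overlaps and shared 50-base sequences came from GENCODE M21 (GRCm38), in which all 44 genes were found, 38 with the same start. More than 10% of such sequences were shared in 6 members. Exons of another gene overlapped by at least 100 bases on the opposite strand in 6 members and on the same strand in 2. Python 3.11.15 with pandas 2.3.3, numpy 2.4.6 and matplotlib 3.10.9 did the rest.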

Additional observations from a re-analysis of the deposited data

How the results depend on the processing

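The numbers of called genes depended on single lungs and on the variance model. Over all genes the count of 440 was 0 with no filter on low values (4876 genes at an unadjusted p under 0.05), 72 with no trend and 766 with the replicate block (4.15%), and between 0 and 2385 when single lungs were left out. The count of 2 members was 0 with no filter (14 at an unadjusted p under 0.05), 1 with no trend and 4 with the replicate block, and between 0 and 5 without single lungs. For receptors alone it was 0 with no filter and 1 with no trend, and between 0 and 3 without single lungs. For ligands the count of 0 became 1 (Il1b, adjusted p = 0.0436) with the replicate block, and lay between 0 and 2 without single lungs. For the other pathway genes the count of 2 was 0 with no filter, 0 with no trend and 4 with the replicate block, and between 0 and 11 without single lungs. The 4 members called with the replicate block were Il6ra, Il1r2, Il1b and Il22ra2. Il22ra2 met the mean of 10 only through the RykSL/SL libraries, so its call supports nothing. In a fit without 1 lung, the lone lung left of its genotype was assumed to vary like the other genotype. The causes were not tested. The replicate numbers are only names: deviations of same-numbered libraries correlated at -0.06 over genes, and with 2 pairs no pairing can be shown. Il6ra and Il1r2 kept their direction in all 13 alternatives and were called in 9 and 7 of them.

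Scaling to the same total moved the median log2 fold change of all genes from -0.02 to -0.09 and turned the sign of 5 members near 0: Il15ra (-0.0285), Il17d (-0.0669), Il18r1 (-0.0217), Il1r1 (-0.004) and Il3ra (-0.0072). Quantile normalization turned Il16 (0.0026) and Il18r1 (-0.0746). Leaving out single lungs turned further small differences, with ranges over the 4 fits of -0.97 to 0.0002 for Il10ra, -0.0308 to 0.13 for Il15ra, -0.15 to 0.0298 for Il16, -0.20 to 0.22 for Il17d, -0.0191 to 0.18 for Il17rd, -0.52 to 0.14 for Il18, -0.0659 to 0.18 for Il18r1, -0.14 to 0.29 for Il1r1, -0.45 to 0.0628 for Il1rl2, -0.0904 to 0.47 for Il34, -0.35 to 0.49 for Il3ra and -0.87 to 2.50 for Il6. Values under about 10 normalized counts rest on few reads.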
